A study of Mus musculus with 4 samples.

Results

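The genes described are 4 subunits of the sodium pump, the catalytic subunit gene Atp1a4 and the beta subunit genes Atp1b1, Atp1b2 and Atp1b3, out of 24388 gene symbols in the table. They were taken by symbol, and all 4 have a row. Atp1b2 was selected on its RPKM difference between knockout and control, which was among the largest rises, and Atp1a4 because it is the sperm form of the catalytic subunit. The control and knockout values of the 4 genes are therefore a description and carry no test. RNA was sequenced from testis cell suspensions labelled as spermatocytes, in 2 libraries of a group labelled control and 2 libraries of a group labelled as an Np95 knockout. Np95, gene symbol Uhrf1, keeps DNA methylation in place when DNA is copied. All 4 libraries are labelled as C57BL/6 mice and as 21 dpc, an abbreviation that the labels do not spell out. The column headers call the knockout Np95cKO, while the labels name neither the deleted part nor a Cre line nor the number of animals.

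The sodium pump moves sodium out of the cell and potassium in at the expense of ATP, and the gradient it builds drives many other carriers. Its alpha subunit binds the ions and ATP, and its beta subunit is a glycoprotein that the alpha subunit needs to fold and to reach the cell surface. Atp1a4 is the form of the alpha subunit found in male germ cells that sperm need to swim. Of the beta subunits, Atp1b1 is the widely expressed form, Atp1b2 is also known as an adhesion molecule of glia, and Atp1b3 is found in many tissues, testis among them. Small membrane proteins of the FXYD family bind the pump and tune its activity.

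The stretches just before the transcription start of 3 of the 4 genes are shown because the knockout concerns DNA methylation, which mammals place mainly on cytosines followed by guanine (CpG), and CpGs are in capitals. They come from RefSeq's GRCm38.p6, each 250 bases on the minus strand of the genome, read 5′ to 3′ and ending at the base before the annotated start. The windows are chr1:164458356-164458605 for Atp1b1, chr9:96364432-96364681 for Atp1b3, which has 2 starts in the table and is shown at the outer one, and chr1:172258425-172258674 for Atp1a4. Atp1b2, on chromosome 11, had no entry.
Atp1b1: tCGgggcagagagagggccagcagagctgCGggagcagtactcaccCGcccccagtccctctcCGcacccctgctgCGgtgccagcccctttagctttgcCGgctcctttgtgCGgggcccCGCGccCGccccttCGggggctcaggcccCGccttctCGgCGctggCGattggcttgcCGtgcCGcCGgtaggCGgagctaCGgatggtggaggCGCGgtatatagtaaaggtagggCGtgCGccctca
Atp1b3: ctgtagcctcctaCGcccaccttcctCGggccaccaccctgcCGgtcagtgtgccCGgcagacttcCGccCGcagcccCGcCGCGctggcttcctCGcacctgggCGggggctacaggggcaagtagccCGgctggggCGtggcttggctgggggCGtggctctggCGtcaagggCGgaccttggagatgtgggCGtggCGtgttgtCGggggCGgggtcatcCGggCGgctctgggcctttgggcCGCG
Atp1a4: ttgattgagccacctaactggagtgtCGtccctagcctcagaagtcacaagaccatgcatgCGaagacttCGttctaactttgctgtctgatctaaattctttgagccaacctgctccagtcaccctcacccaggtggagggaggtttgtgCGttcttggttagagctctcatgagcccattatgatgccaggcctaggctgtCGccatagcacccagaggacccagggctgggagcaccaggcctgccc
The windows of Atp1b1 and Atp1b3 each held 24 CpGs, and 89.3% of 32851 such windows held this many or fewer. The window of Atp1a4 held 5, next to a median of 6 over all windows. On either strand, the letters GGGCGG (a GC box) occurred 2 times before Atp1b1 and 5 times before Atp1b3, and 32.7% of all windows hold them. The letters CCAAT occurred once before Atp1b1, next to 33.8% of all windows. TATAAA (12.4% of windows), AACNGTT, the core bound by MYB proteins (3.8%), and TGACGTCA, the cyclic AMP response element (1.5%), occurred in none of the 3 windows. Methylation was not measured in these files.

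Atp1b2 was 6.00-fold higher in the knockout libraries, Atp1b1 2.79-fold and Atp1b3 1.44-fold, while Atp1a4 was close to 0 RPKM in all 4 libraries. RPKM is the number of reads per kilobase of gene, scaled to library depth, and folds compare the mean RPKM of the groups. Among the beta subunits the makeup shifted, with Atp1b2 going from 13.7% ± 0.731 to 35.3% ± 1.57 of the beta signal (SD, n = 2) when values are set to exon length.

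Atp1b2 had 3.70 and 3.94 RPKM in control replicates 1 and 2, and 20.2 and 25.7 RPKM in knockout replicates 1 and 2. Both knockout libraries lay far above both control libraries, and the smallest ratio between a knockout and a control library was 5.13. The group means were 3.82 ± 0.163 and 22.9 ± 3.87 RPKM (SD, n = 2), a difference of 2.30 on the log2(RPKM + 1) scale. By that difference Atp1b2 ranked 5th of 9099 genes tested, just below Sox9 (2.36) and just above Sox4 (2.30). By the ratio of mean RPKM, 83 genes tested (0.912%, Atp1b2 included) were at or above Atp1b2. The rank is the value for which the gene was chosen. The genes tested are those with at least 1 RPKM in at least 2 of the 4 libraries.

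Atp1b1 had 1.39 and 1.48 RPKM in the control libraries, and 3.52 and 4.50 RPKM in the knockout libraries. The groups did not overlap, with means of 1.44 ± 0.0633 and 4.01 ± 0.695 RPKM (SD, n = 2) and a log2 difference of 1.03. Of the genes tested, 9.75% had a larger log2 rise than Atp1b1.

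Atp1b3 had 2.65 and 2.52 RPKM in the control libraries, and 3.56 and 3.87 RPKM in the knockout libraries. The groups again did not overlap, with means of 2.59 ± 0.0964 and 3.71 ± 0.222 RPKM (SD, n = 2), but the log2 difference was only 0.39. A larger log2 rise was seen in 36.8% of the genes tested.

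Atp1a4 had 0.00736 and 0.0122 RPKM in the control libraries, and 0.0194 and 0.0297 RPKM in the knockout libraries. The sperm form of the pump was thus at the edge of detection in each library. If the smallest step between low RPKM values is 1 read, the 4 values stand for 3, 11, 15 and 10 reads, whereas those of Atp1b2 stand for about 270, 632, 2815 and 1550. Summed over libraries, 14 control reads and 25 knockout reads of Atp1a4 give a ratio of 2.09 at equal depth. Its 95% interval of 1.04 to 4.35 (exact Clopper-Pearson) covers counting error only. The interval leaves out how much libraries of a group differ, so it is no test of knockout against control. Whether both reads of a pair were counted is not known, and if they were, the independent fragments are fewer and the interval is too narrow. Atp1a4 did not pass the filter on low values and was not tested.

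**Figure D1:**
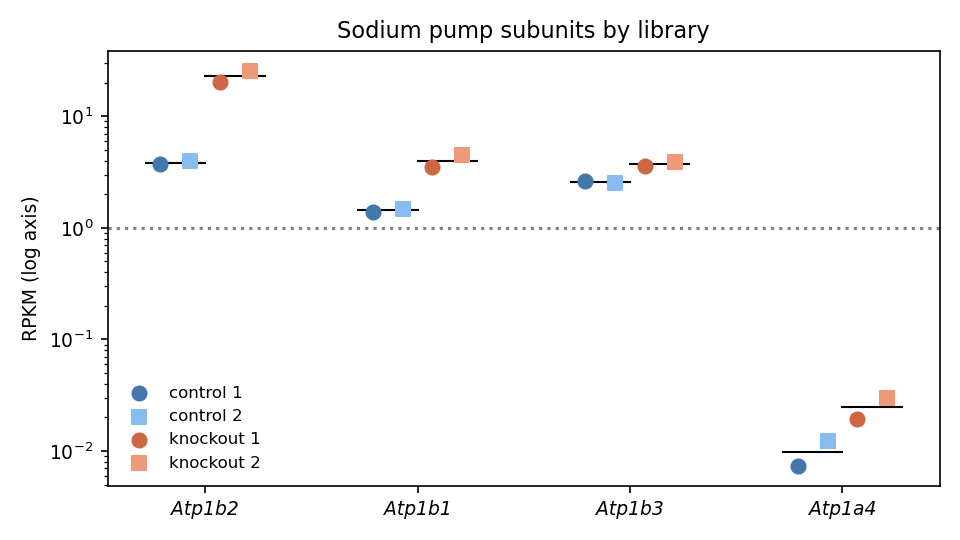
RPKM (log axis) of the 4 subunit genes in each library, with control libraries in blue, knockout libraries in orange, circles for replicate 1, squares for replicate 2 and a black line at each group mean. The dotted line marks 1 RPKM, the level used in the filter. Atp1b2 reached 20.2 and 25.7 RPKM in the knockout, and Atp1a4 stayed under 0.03 RPKM.

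All 3 members that passed the filter were past the threshold of limma, an adjusted p under 0.05, and higher in the knockout, as were 43.3% of all genes tested, while 30.5% were called lower and 73.8% in either direction. Both knockout libraries lay above both control libraries for 51.8% of the genes tested, below them for 38.0%, and above them for 53.0% of the 21208 genes above 0 in any library. Nothing is read from these counts, since the contrast was used to choose the members. The table rests on about 11700000 reads in control replicate 1, 25700000 reads in control replicate 2, 22300000 reads in knockout replicate 1 and 9660000 reads in knockout replicate 2, by the steps between low values, with the same doubt on whether these are single reads or both reads of a pair. Uhrf1 itself was 1.91-fold lower in the libraries labelled knockout (limma adjusted p = 0.0031). Of the calls 58.7% were higher as deposited, 75.9% when each library was brought to an equal RPKM sum, 46.3% with an equal median and 52.0% with quantile normalization. The median log2 difference of all genes tested was 0.14, 0.44, -0.05 and 0.03 in the same order. Relative to that median, the log2 difference of Atp1b2 was 2.16 as deposited and 2.16 to 2.46 under the 3 other scalings, that of Atp1b1 was 0.89 and 0.81 to 0.89, and that of Atp1b3 was 0.25 and 0.19 to 0.27. The log2 difference of Atp1a4 was 0.02 as deposited and turned to -0.17 with an equal median.

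The beta gene Atp1b4, which lies outside the classical pump, was listed at 0 in both control libraries and at 0.0130 and 0.0100 RPKM in the knockout libraries.

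The deposited values are scaled by the whole gene span, introns included, so that levels of different genes need a common length. The span of Atp1b2 is 6.25 kb and those of Atp1b1, Atp1b3 and Atp1a4 are 21.3, 31.8 and 34.9 kb, whereas their exons sum to 2.84, 2.58, 1.99 and 3.47 kb in the GRCm38 annotation. Set to exon length, the control order was Atp1b3 at 41.2 ± 1.54, Atp1b1 at 11.8 ± 0.521 and Atp1b2 at 8.40 ± 0.359 RPKM per exon length (SD, n = 2). No neighbours in that order overlapped between libraries. Atp1a4 was at 0.0985 ± 0.0346 on this scale (SD, n = 2). In the knockout libraries Atp1b3 had 56.7 and 61.7, Atp1b2 44.4 and 56.5, and Atp1b1 29.0 and 37.1 RPKM per exon length. On this scale Atp1b2 thus stood above Atp1b1 in both knockout libraries and below it in both control libraries. The scale takes all reads to come from exons, which was not checked. The ranges of Atp1b3 and Atp1b2 lay next to each other in the knockout, closer than the spread between its libraries.

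Within a library, a share of the beta signal does not depend on how libraries are scaled to each other. Atp1b2 made up 13.2% and 14.2% of the beta signal per exon length in the control libraries, and 34.1% and 36.4% in the knockout libraries. Atp1b3 made up 68.3% and 65.8% in the control libraries, and 43.6% and 39.7% in the knockout libraries. It was the largest share in each of the 4 libraries on this scale. With the deposited gene-span values the largest share was that of Atp1b2 instead. It was 47.8% and 49.6% in the control libraries, and 74.0% and 75.4% in the knockout libraries. Per exon length Atp1b1 went from 18.5% and 20.0% to 22.3% and 23.9%. This difference of 3.82 percentage points turned to -5.25 with the deposited gene-span values. The ratio of Atp1b2 to Atp1b1 RPKM was 2.66 in each control library and 5.75 and 5.71 in the knockout libraries. The ratio of Atp1b2 to Atp1b3 RPKM was 1.40 and 1.56 in the control libraries, and 5.68 and 6.63 in the knockout libraries. Since Atp1b2 was chosen for its large rise, its higher share and ratios in the knockout come with that choice and are a description only.

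**Figure D2:**
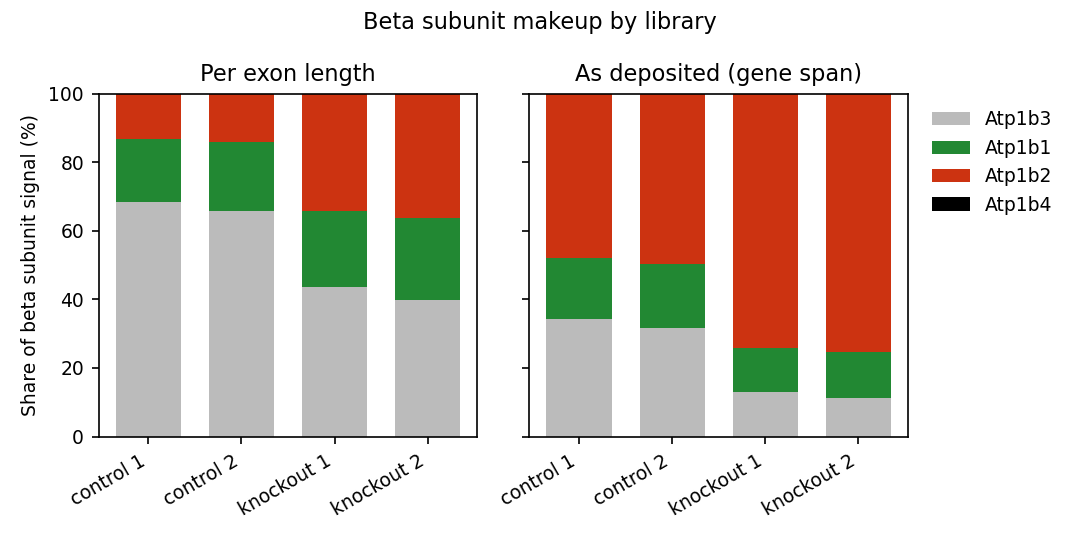
Share of each beta subunit gene in the summed beta signal of each library, in percent, with RPKM set to exon length on the left and as deposited on the right. Per exon length Atp1b2 took 13.2% and 14.2% in the control and 34.1% and 36.4% in the knockout libraries, and Atp1b4 is too low to be seen.

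The summed beta signal per exon length was 61.9 and 61.0 in the control libraries and 130 and 155 in the knockout libraries, again without overlap. Within it Atp1b2 went from 8.40 ± 0.359 to 50.5 ± 8.51 (SD, n = 2), so the higher sum comes in part with the choice of that gene. Both knockout libraries lay above both control libraries for 51.8% of the genes tested, and the sum is a description only.

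Of the 7 FXYD regulators listed, 2 passed the filter and both rose, with a median log2 fold change of 0.98 next to 0.14 for all genes tested. Of all genes tested, 43.3% were called higher. Fxyd6 had 2.15 and 2.75 RPKM in the control libraries and 6.16 and 7.02 RPKM in the knockout libraries, 2.69-fold higher (limma adjusted p = 0.0015). Fxyd1, known as phospholemman, had 0.541 and 0.472 RPKM in the control libraries and 1.87 and 1.47 RPKM in the knockout libraries, 3.30-fold higher (limma adjusted p = 0.0018), and only its knockout values reached 1 RPKM. Fxyd2, the gamma subunit of the kidney pump, had 0.426 and 0.523 RPKM in the control and 0.224 and 0.262 RPKM in the knockout libraries. Fxyd5, known as dysadherin, had 0.440 and 0.515 RPKM in the control and 0.272 and 0.298 RPKM in the knockout libraries. Without the filter 4 of the 7 were called higher and 2, Fxyd2 and Fxyd5, lower. None of the 4 NKAIN genes, whose proteins bind the pump's beta subunit, and none of the 3 proton-potassium pump genes passed the filter.

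Among genes of other transport proteins the direction differed by list. Of all genes tested 43.3% were called higher and 30.5% lower, and the carriers below came near both shares. Of 31 other P-type ATPases, the enzyme class of the sodium pump, 8 passed the filter, of which 6 rose, 1 fell and 1 was not called (median log2 fold change 0.51). The flippase gene Atp8b2 rose 4.96-fold and the lysosomal polyamine pump gene Atp13a2 3.42-fold (limma adjusted p = 0.0014 for each). Atp13a3, a related polyamine carrier, rose 3.28-fold, and both Atp8b2 and Atp13a3 were below 1 RPKM in the 2 control libraries. The gene that fell was Atp8b3, a flippase of the sperm acrosome, with 55.0 and 50.5 RPKM in the control and 24.7 and 16.3 RPKM in the knockout libraries. Of 29 carriers that use or shape the sodium gradient, 9 passed the filter, of which 4 rose, 3 fell and 2 were not called (median -0.02). Slc38a2, a sodium-coupled amino acid carrier, rose 5.26-fold, Slc6a8, the creatine carrier, 5.75-fold and Slc20a1, a sodium-phosphate carrier, 2.93-fold. Slc6a8 and Slc12a2, a sodium-potassium-chloride carrier, were 2 of the 4 that rose and passed the filter by their knockout values alone. The carriers that fell were the sodium-proton exchanger genes Slc9a5, Slc9b1 and Slc9c1, 2.54-fold, 2.62-fold and 3.01-fold lower. Of these, Slc9c1 is the exchanger of the sperm tail, and it passed the filter by its control values alone.

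Genes of sperm ion channels and their partners, which like Atp1a4 serve swimming sperm, were lower. Of 19 listed, 18 had a row and 10 passed the filter, of which 9 fell and 1 was not called, with a median log2 fold change of -0.84 and a median RPKM ratio of 0.450. Slc9c1 and Adcy10, among the 9, were under 1 RPKM in both knockout libraries and entered the test by their control values alone. Tex40, also named Catsperz, a subunit of the CatSper calcium channel, had 109 and 113 RPKM in the control libraries and 24.3 and 13.5 RPKM in the knockout libraries. Catsper2 and Catsperd were 3.16-fold and 3.10-fold lower (limma adjusted p = 0.0014 and 0.0023). The CatSper genes Catsperg1 and Catsperg2 fell too, but they are near-identical copies that can share reads. The list shares Slc9c1 with the carriers and Atp2b4 with the P-type ATPases. Over all these lists together, without the 4 members, 12 genes rose and 12 fell, next to 43.3% called higher and 30.5% called lower of all genes tested.

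**Figure D3:**
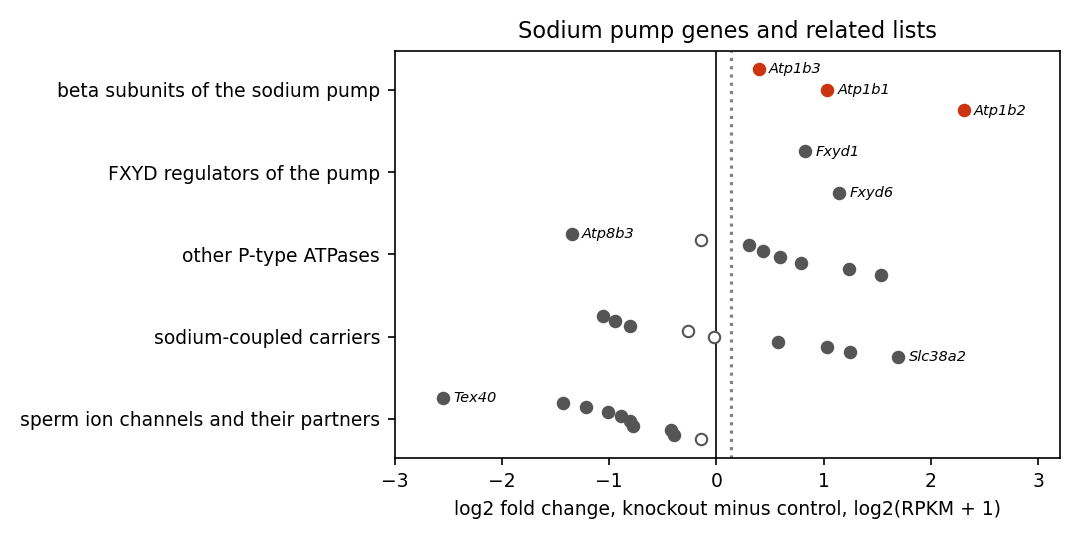
Log2 fold change, knockout minus control on the log2(RPKM + 1) scale, of each gene that passed the filter in the lists of pump subunits and related transport proteins, with members in red, filled points past the threshold and open points not called. The dotted line is the median of all genes tested, 0.14. The pump and FXYD genes lie to the right of it, and the sperm ion channel genes to the left.

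The reads were not assigned to a strand, so genes next to the members were examined. Atp1b2 lies between Trp53, the p53 tumour suppressor gene, and Shbg, the gene of the androgen-binding protein that rodent Sertoli cells secrete, without overlapping either in the GRCm38 gene table. Shbg had 4.02 and 4.59 RPKM in the control libraries and 10.3 and 13.7 RPKM in the knockout libraries, and it rose 2.79-fold (limma adjusted p = 0.0017). Sat2, the next gene beyond Shbg, rose 2.76-fold and Trp53 2.03-fold (limma adjusted p = 0.0014 and 0.0030). Wrap53, beyond Trp53, was not called as deposited, with 2.40 and 2.53 RPKM in the control and 2.37 and 2.25 RPKM in the knockout libraries, and its direction changed with the scaling (0.23 on the log2 scale with an equal RPKM sum, -0.26 with an equal median). Atp1b2, which was chosen for its large rise, had the largest ratio of the 5 genes.

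**Figure D4:**
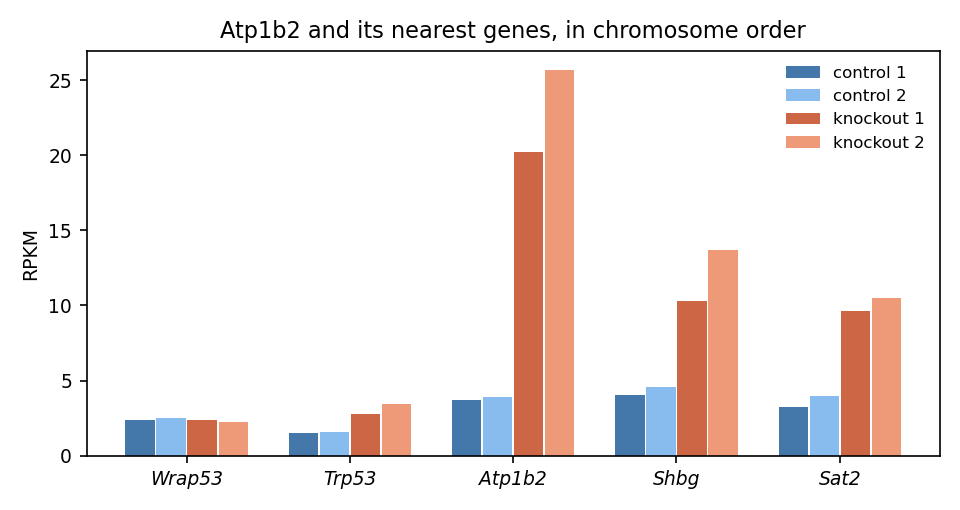
RPKM in each library of Atp1b2 and the 2 nearest genes with a row on each side, in chromosome order and without distances. Bars are single libraries, control in blue and knockout in orange. Atp1b2 reached 20.2 and 25.7 RPKM in the knockout libraries, against 10.3 and 13.7 for Shbg and 2.77 and 3.45 for Trp53.

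Around the other members the neighbours went different ways. Nme7 overlaps Atp1b1 in the gene table, and Nme7 had 0.662 and 0.656 RPKM in the control libraries and 0.427 and 0.372 RPKM in the knockout libraries, opposite to Atp1b1. On the far side of Nme7, Blzf1 was not called as deposited, and Dpt and Gm20743 on the other side of Atp1b1 were below 0.3 RPKM in each library. Next to Atp1b3, Tfdp2 had 0.148 and 0.132 RPKM in the control and 0.574 and 0.714 RPKM in the knockout libraries, and Rnf7 fell from 25.5 ± 2.84 to 14.9 ± 1.44 RPKM (SD, n = 2). Gk5 and Rasa2, the genes beyond them, were at 0.0676 to 0.618 RPKM. Around Atp1a4, Casq1 was below 0.1 RPKM in each library, while Pea15a and Igsf8 rose by 1.52 and 0.91 on the log2 scale.

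The genes most like each member were found by the Euclidean distance between profiles of log2(RPKM + 1) over the 4 libraries, each centred on its own mean, among 8737 tested genes other than microRNA and small nucleolar RNA rows. Nearest to Atp1b2 was Tex13 at a distance of 0.0569, with 3.59 and 3.72 RPKM in the control and 18.6 and 24.3 RPKM in the knockout libraries. Ubqln2 and Scd2 followed at 0.215 and 0.223. Nearest to Atp1b1 were Fam168b at 0.0127, Gm7367 at 0.0191 and Ppp3r1 at 0.0212. Nearest to Atp1b3 were Diexf at 0.00864, Mycbp2 at 0.0118 and Zmym1 at 0.0158. The profile of Atp1a4 is nearly flat on this scale, and its nearest genes Rpl4, Nr2c2 and Grsf1 are likewise flat. These distances rest on 4 libraries in 2 groups.

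Most of the tested markers of Sertoli cells, Leydig cells and macrophages rose in the knockout libraries, as did Atp1b1, Atp1b2 and Atp1b3. Of all genes tested, 43.3% were called higher and 30.5% lower. In bulk RNA a change in the share of a cell type and a change in RNA per cell cannot be told apart. Of 17 Sertoli cell markers 14 passed the filter and all 14 rose, none of the 17 was at 0 in all libraries, and their summed level was 132 and 155 RPKM in the control and 394 and 494 RPKM in the knockout libraries. Wt1, Gata4 and Trf, 3 of the 14, were under 1 RPKM in both control libraries and entered the test by their knockout values alone. Sox9 had 1.15 and 1.63 RPKM in the control and 8.41 and 14.9 RPKM in the knockout libraries, and the abundant markers Aard and Clu rose 2.88-fold and 3.29-fold. Expressed as a percentage of the Sertoli cell sum, Atp1b2 RPKM was 2.81% and 2.54% in the control libraries and 5.12% and 5.20% in the knockout libraries. On the same basis Atp1b1 was at 1.05% and 0.954% against 0.892% and 0.911%, and Atp1b3 at 2.01% and 1.62% against 0.902% and 0.783%. The part of Sertoli cells in the levels of Atp1b1, Atp1b2 and Atp1b3 was not tested.

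Of 7 Leydig cell markers 6 were tested and 5 rose, with Insl3 and Star the most abundant, and their sum was 19.1 ± 0.0738 RPKM in the control (SD, n = 2) and 60.4 and 50.3 RPKM in the knockout libraries. All 5 of the macrophage markers tested, of 9 listed, rose, C1qa and C1qc among them, and their sum was 5.15 and 6.53 RPKM against 16.3 and 12.8. Cyp11a1 among the Leydig cell markers and Cd68 and C1qb among the macrophage markers entered the test by their knockout values alone. The calls of Star and C1qa rest on single libraries: the limma adjusted p was 0.142 for Star without control replicate 2 and 0.125 without knockout replicate 2, and 0.105 for C1qa without control replicate 1 and 0.0896 without knockout replicate 1. Of 5 peritubular myoid cell markers only Tagln was tested, and it rose 1.51-fold (limma adjusted p = 0.0690 without control replicate 1), while Acta2 was at 0.393 to 1.19 RPKM and the sum of the list at 2.49 to 4.72. None of the 6 endothelial markers, Egfl7 and Cdh5 the highest, passed the filter, and their sum was 0.193 to 0.734 RPKM. Between the knockout libraries, replicate 2 was 1.27 times replicate 1 for Atp1b2, 1.28 times for Atp1b1 and 1.09 times for Atp1b3. It was 1.53 times replicate 1 for Atp1a4 and 1.25 times for the Sertoli cell sum. Between the control libraries, replicate 2 was 1.06 times replicate 1 for Atp1b2 and for Atp1b1, and 0.949 times for Atp1b3. There it was 1.66 times replicate 1 for Atp1a4 and 1.18 times for the Sertoli cell sum. All 14 genes of dissociation and stress tested, of 17 listed, rose as well, with Jund 4.71-fold and Ier2 3.10-fold higher and a sum of 26.9 and 33.3 RPKM in the control against 103 and 148 RPKM in the knockout libraries. Of these 14, the 5 genes Fos, Ier3, Dusp1, Btg2 and Klf6 entered the test by their knockout values alone.

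The label spermatocytes names no stage. Pachytene spermatocyte markers were present in each library and lower in the knockout, while most of the tested genes of meiotic entry were higher. All 12 pachytene spermatocyte markers fell, with Hspa2 and Ybx2 the most abundant, and their sum was 1724 and 1670 RPKM in the control and 776 and 607 RPKM in the knockout libraries. Hspa2 turned to 0.05 on the log2 scale and was not called with quantile normalization, and its limma adjusted p was 0.0850 and 0.0807 without control replicate 1 or 2. Of 12 spermatid markers 6 were tested and 5 fell, Dnajb3 and Acr among them, with a sum of 353 and 346 RPKM against 113 and 71.0. That sum is mostly Dnajb3, with 319 and 313 RPKM in the control and 98.2 and 60.1 RPKM in the knockout libraries. Gapdhs was not called, and Tnp1, Prm1, Prm2, Acrv1, Tssk2 and Spaca1 did not pass the filter. Of the 9 genes of meiotic entry listed, 8 had a row and were tested, of which 6 rose and 1, Spo11, fell, while Hormad1 was not called as deposited. Dmc1, Prdm9 and Ccnb3, 3 of the 6, entered the test by their knockout values alone. Of 12 spermatogonial markers 5 were tested, of which 4, Uchl1 among them, rose and Id4 fell, and Dmrt1, among the 4, entered the test by its knockout values alone. The spermatogonial sum was 47.5 and 52.1 RPKM in the control and 46.5 and 45.1 RPKM in the knockout libraries. Of that sum, Id4 was 39.0 and 41.7 RPKM in the control and 24.6 and 21.6 RPKM in the knockout libraries. The part of these changes in the values of the pump genes was not tested.

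**Figure D5:**
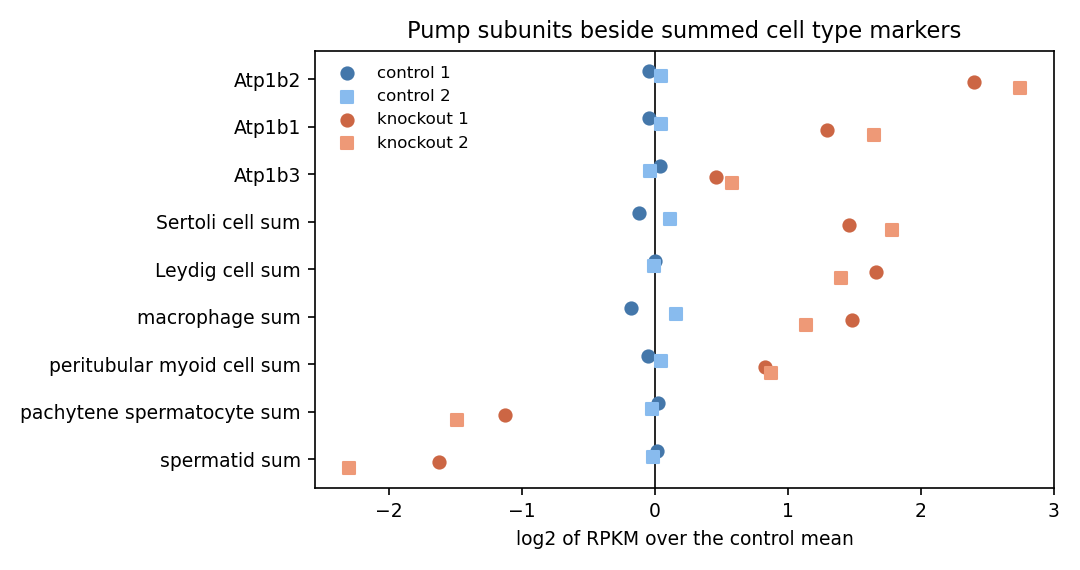
Log2 of RPKM over the control mean in each library for Atp1b2, Atp1b1 and Atp1b3 and for the summed markers of 6 cell types, with control libraries in blue and knockout libraries in orange. The pump genes and the sums of Sertoli cell, Leydig cell, macrophage and peritubular myoid cell markers lie right of 0 in both knockout libraries, and the pachytene and spermatid sums lie left of it. Most of the spermatid sum is the single gene Dnajb3.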

How the data were processed

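RNA was measured as poly(A) RNA libraries made with a kit that does not mark strand, read as 50-bp pairs, and the authors deposited RPKM values with 1 column per library, per the file headers. Bowtie2 and the mm9 build are listed in the submitters' processing notes, and the counting program is not given in the sources used here. Of low RPKM values, 62.4% to 64.3% per library lay within 0.05 of a whole step when multiplied by gene span (at most 11.8% by exon length, where chance gives 10%), which set the read depths and showed scaling by span. Spans, neighbours and exon lengths came from GRCm38 tables by symbol. No count test was run, because the other values gave no whole number of reads.

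From 24444 rows, 27 with a date as symbol and 29 repeats were left out. Groups came from the sample titles. Genes at 1 RPKM or more in at least 2 libraries (9099) were compared on log2(RPKM + 1) in R 4.3.3. The two-sided test of limma 3.58.1 was used, fitted with its trend of variance on mean level. P-values were adjusted by Benjamini-Hochberg (threshold 0.05). The fit was also run on simulated data in which few genes were changed. In the real data 73.8% of the genes tested were called, so that run does not show how the fit behaves here. An exact permutation of 2 against 2 cannot go below p = 0.333. The labels do not tie replicates to separate animals, and p-values therefore reflect only how much these libraries vary, which may be technical. Alternatives were other pseudocounts, filters and scalings, no trend, a replicate block, summed rows and each library left out. The members and lists were chosen with earlier results of these data known. Named are the 4 members, each gene of the pump lists past the filter, up to 3 called genes per direction of the other transport lists by p, 2 neighbours on each side, the 3 most similar genes and the 2 most abundant of each marker list, while Sox9, Sox4, genes below the filter and a few list members were named after their values were seen. Some genes of the pump lists are not reported here. The summed beta signal and the percentages of the Sertoli cell sum were also added after the values were seen.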

Additional observations from a re-analysis of the deposited data

How the results depend on the processing

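The log2 differences of Atp1b2, Atp1b1 and Atp1b3 stayed above 0 under each pseudocount, scaling and left-out library tried. With a pseudocount of 0.1 they were 2.55, 1.41 and 0.50, and that of Atp1a4 was 0.18. With a pseudocount of 0.5, Atp1b1 was at 1.21 and Atp1a4 at 0.0412. With an equal RPKM sum Atp1b2, Atp1b1 and Atp1b3 were at 2.67, 1.33 and 0.71. With an equal median they were at 2.11, 0.84 and 0.20 and Atp1a4 at -0.17, and with quantile normalization at 2.49, 0.84 and 0.22 and Atp1a4 at 0.00432. The cause was not tested, apart from the pseudocount, which by construction moves low genes most. With gene-span values the share of the beta signal changed by 26.0 points for Atp1b2, -20.8 for Atp1b3 and -5.25 for Atp1b1, the last against 3.82 per exon length. Over all genes, 3943 were higher and 2776 lower. Without the filter 7370 were higher, at 5 RPKM 1080 were higher and 1629 lower, and with an equal RPKM sum 1698 were lower. Of the other transport genes, 32 were higher and 20 lower without the filter, and 5 and 6 at 5 RPKM, where fewer genes were tested. Hspa2 turned to 0.0543 with quantile normalization and Wrap53 to 0.23 with an equal RPKM sum. The calls of Fxyd1 and Fxyd6 held under each alternative that tested them. Without the filter C1qa, Hspa2 and Star, with equal medians C1qa, Star and Tagln, with an equal RPKM sum Spo11, and with quantile normalization C1qa, Id4, Rnf7, Star, Tagln and Ybx2 were no longer called. Calls were gained by Blzf1 (0.37) and Hormad1 (0.50) with an equal RPKM sum, by Hormad1 (0.25) without knockout replicate 2, and by Wrap53 with an equal median (-0.26) and quantile normalization (-0.28). With a replicate block 3868 genes were higher and 2721 lower. The labels do not say what the number marks, so the block is no paired test. Deviations of same-numbered libraries from their group means correlated at 0.109 over 9099 genes. Knockout replicate 2 and control replicate 1 are the shallowest libraries, which limits Atp1a4 most.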
